A study of Arabidopsis thaliana with 28 samples.

Results

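NDB2 (AT4G05020), AT2G21640, known as UPOX, and AT5G09570 are nuclear genes of the Arabidopsis mitochondrial retrograde response, and their transcripts were followed through the root tip during hydrogen peroxide (H2O2) treatment. The members were all probe sets that the platform annotation pairs with these genes, which gave 3 probe sets, 1 for each gene, out of the 22746 probe sets tested and of 13286 genes with a probe set of their own. All plants were Arabidopsis thaliana accession Col-0 seedlings aged 5 days, a number that the labels count from germination in one field and from imbibition in another. Seedlings were placed on control medium or on medium with 1 mM H2O2, and root tips were cut by hand under a microscope into a meristematic zone and an elongation zone. The H2O2 medium was sampled after 1, 3 and 6 h and the control medium also at 0 h, in each zone, which gave 14 groups of 2 biological replicates and 28 Affymetrix ATH1 arrays. Each replicate pooled 30 roots, each zone held several cell types, and the RNA went through 2 rounds of amplification.

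Mitochondria send signals to the nucleus when the respiratory chain is disturbed, and a set of nuclear genes for mitochondrial proteins responds to them. In Arabidopsis the best known of these genes encode alternative oxidases and alternative NAD(P)H dehydrogenases, which let electrons pass the chain without pumping protons. H2O2 is formed by the respiratory chain and, when added from outside, is a common experimental trigger of such genes. NDB2 encodes an external alternative NAD(P)H dehydrogenase on the outer face of the inner mitochondrial membrane. The gene table used lists AT2G21640 and AT5G09570 by locus, with no role, so they are described as members of the response only.

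Lists of markers for dividing and elongating cells described the cut zones. They were chosen with earlier results of these data known, so they are no independent check of the cutting. Of 8 listed markers of dividing cells 5 were measured, such as the Aurora kinase gene AUR1. All 5 were lower in the elongation zone on control medium, as were 32.3% of all probe sets. All 6 of elongating and root hair cells, such as the expansin gene EXPB1, were higher, as were 26% of all probe sets. Summed signals of the first list were 1117 to 2351 on the 14 meristematic arrays and 157 to 461 on the 14 elongation arrays, and those of the second were 146 to 306 and 2814 to 6872. Signals are linear intensities in arbitrary units. The 2 arrays of a group correlated at 0.9649 to 0.9867 over all probe sets, and array medians ranged from 49.3 to 76.1. The control arrays at 1 h numbered 1, in both zones, had scores of -2.39 and 6.86 on principal component 2, which held 4.35% of the variance, while all other 1 h arrays scored from -24.8 to -39.4.

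NDB2 was the gene of the 3 that differed most between zones, and its signal was several times higher in the elongation zone at all times on both media. On control medium the meristematic arrays read 303 and 262 at 0 h, 316 and 293 at 1 h, 440 and 312 at 3 h, and 358 and 283 at 6 h. The elongation arrays read 1596 and 1538 at 0 h, 2232 and 1369 at 1 h, 2684 and 1921 at 3 h, and 1933 and 2056 at 6 h. The lowest elongation array lay far above the highest meristematic array, so the zones did not overlap.

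Over the 4 control times mean NDB2 signals were 1916 ± 423 (SD, n = 8) for the elongation zone against 321 ± 55.5 (SD, n = 8) for the meristematic zone. The contrast was 2.51 ± 0.11 (SE) in log2(signal + 16), a 5.68-fold difference, with a limma adjusted p of 6.41e-14. A difference between zones was common on these arrays: 58.3% of all probe sets were called at an adjusted p under 0.05, 26% as higher and 32.3% as lower in the elongation zone. All arrays of the elongation zone lay above all meristematic ones for 13.9% of probe sets and below them for 20.5%. The NDB2 contrast stayed between 2.35 and 2.79 and remained called in every alternative run. With bulk tissue, fewer cells of a type and less RNA per cell cannot be told apart. The log2 ratio of the 3′ to the 5′ GAPDH control probe sets also differed between zones, at 0.0338 ± 0.22 for elongation and 0.434 ± 0.184 for meristematic controls (SD, 8 arrays per zone, 2-sided exact permutation p = 0.00124), and its part in the zone results was not tested.

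**Figure D1:**
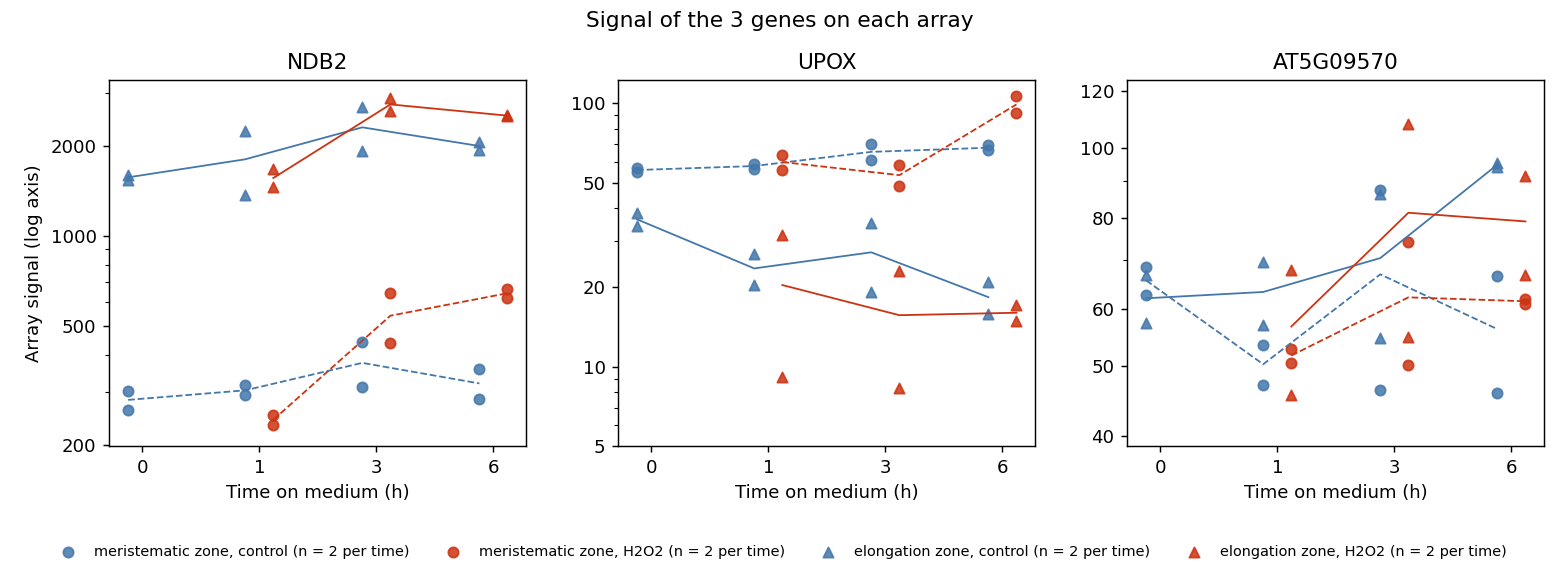
Signal of NDB2, UPOX and AT5G09570 on each of the 28 arrays (log axes that differ between panels) against time on medium, with circles for the meristematic zone, triangles for the elongation zone, blue for control and red for H2O2 medium, and lines through the means of 2 arrays. NDB2 sits at 1369 to 2881 in the elongation zone and 233 to 664 in the meristematic zone, and UPOX is higher in the meristematic zone. AT5G09570 overlaps between zones, at 45.6 to 108 in the elongation zone and 45.9 to 87.6 in the meristematic zone.

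On H2O2, NDB2 reached its highest meristematic signals at 3 and 6 h, but no contrast with the matched control passed the test with 1 mean per group in the model. The meristematic H2O2 arrays read 233 and 252 at 1 h, 643 and 437 at 3 h, and 620 and 664 at 6 h. Both 1 h arrays lay below both 1 h controls, the 3 h arrays overlapped their controls by a narrow margin, and both 6 h arrays lay above both 6 h controls. In the elongation zone the H2O2 arrays read 1451 and 1667 at 1 h, 2881 and 2613 at 3 h, and 2514 and 2525 at 6 h. There the arrays overlapped the controls at 1 and 3 h, and at 6 h both lay above both controls.

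At 6 h in the meristematic zone NDB2 averaged 642 ± 31.5 with H2O2 against 321 ± 52.6 without it (SD, 2 arrays each). The contrast was 0.97 ± 0.21 (SE), 1.97-fold, with an unadjusted p of 1.92e-04 and a limma adjusted p of 0.0782, and by p it ranked 55 among the 22746 probe sets. In that comparison 0.136% of probe sets were called, and 19.7% had both H2O2 arrays above both controls. With the replicate number added to the model, NDB2 passed at a limma adjusted p of 0.0171, and 115 probe sets were called. Cell type markers in the same arrays gave summed signals of 296 and 306 on H2O2 against 294 and 248 on control medium for elongating cells, and of 1369 and 1117 against 1544 and 1569 for dividing cells. Their part in the NDB2 value was not tested. Leaving out each of the 4 arrays in turn gave 0.81 to 1.13 with adjusted p from 0.173 to 0.45.

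The other time points gave smaller NDB2 contrasts. In the meristematic zone the log2 change was -0.31 ± 0.21 (SE) at 1 h, with a limma adjusted p of 1, and 0.50 ± 0.21 at 3 h, with 0.912. In the elongation zone it was -0.17, 0.27 and 0.34 at 1, 3 and 6 h, each with an SE of 0.21 and adjusted p of 0.957, 0.962 and 0.754. Of all probe sets, 0%, 0.0396%, 0.0308%, 0.136% and 0.0572% were called in these 5 comparisons, and limma gave 511 probe sets an unadjusted p under 0.05 in the first of them. Both arrays on H2O2 lay below both controls for 11.1% of probe sets at 1 h in the meristematic zone, and above them for 20% at 6 h in the elongation zone, the other comparisons where NDB2 did not overlap.

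Averaged over 1, 3 and 6 h, the NDB2 change on H2O2 was 0.39 ± 0.12 (SE) in the meristematic zone and 0.15 ± 0.12 in the elongation zone, with limma adjusted p of 0.424 and 0.786. Over both zones it was 0.27 ± 0.09 with an adjusted p of 0.232. The share of probe sets called was 0.259%, 0.506% and 0.932% in these 3 comparisons. The difference between the zones was -0.24 ± 0.17, elongation minus meristematic, with a 95% interval of -0.61 to 0.12 and an adjusted p of 1. No probe set was called for that difference by limma, with 971 at an unadjusted p under 0.05.

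The estimated NDB2 change on H2O2 was lower at 1 h than at 6 h in each zone. With all arrays in the fit the shift did not pass the test. The shift from 1 h to 6 h was 0.89 ± 0.21 (SE) over both zones, with a 95% interval of 0.45 to 1.34, an unadjusted p of 4.66e-04, a rank of 40 and a limma adjusted p of 0.259. In that comparison 0.0176% of probe sets were called. Leaving out 1 array at a time gave 0.72 to 1.07 over 16 fits. Each of these fits leaves 1 array alone in a group, so only the effect sizes are given for them. The highest effect size came without the elongation control array at 1 h numbered 2, which read 1369 against 2232 for its partner.

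**Figure D2:**
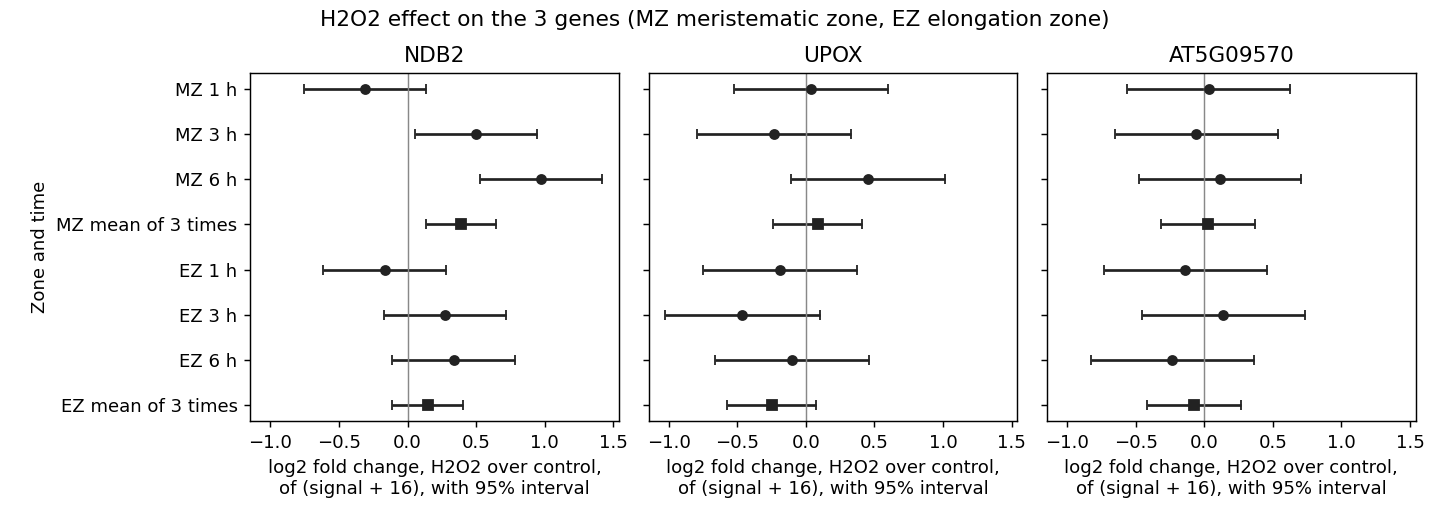
Log2 fold change of (signal + 16), H2O2 over control medium, with 95% intervals from limma (circles for single times with 2 arrays a side, squares for the mean of 3 times), for NDB2, UPOX and AT5G09570 in the meristematic (MZ) and elongation (EZ) zones. The NDB2 value at 6 h in the meristematic zone, 0.97, is farthest from 0, and none of the values passed adjustment over all probe sets.

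Ordered by mean signal, the 7 elongation groups of NDB2 came before the 7 meristematic groups. The highest was the elongation zone on H2O2 at 3 h, 2747 ± 189 (SD, n = 2), followed by H2O2 at 6 h, 2520 ± 7.88, and these neighbours did not overlap. The other elongation groups ran from 2303 ± 540 to 1559 ± 152 and each overlapped the next. Below the gap between zones, the meristematic groups ran from 642 ± 31.5 on H2O2 at 6 h down to 282 ± 29.2 on control medium at 0 h, each overlapping the next. The lowest group was the meristematic zone on H2O2 at 1 h, 242 ± 13.8, which did not overlap its neighbour. Such gaps between neighbouring groups of 2 arrays were not counted over all probe sets, so they only describe the order.

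UPOX ran the other way along the root, with higher signals in the meristematic zone. Its meristematic control arrays read 54.9 and 56.6 at 0 h, 56.5 and 59.0 at 1 h, 60.6 and 70.1 at 3 h, and 69.2 and 66.3 at 6 h. The elongation control arrays read 38.4 and 34.1 at 0 h, 26.9 and 20.4 at 1 h, 35.1 and 19.2 at 3 h, and 21.0 and 15.8 at 6 h. Every meristematic array lay above every elongation array, though this was a dim probe set in the elongation zone, where 4 of 14 arrays over both media were under a signal of 16.

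The control means of UPOX were 61.7 ± 6.04 for the meristematic zone and 26.4 ± 8.53 for the elongation zone (SD, 8 arrays per zone), a linear ratio of 2.34. The contrast was -0.90 ± 0.13 (SE), elongation over meristematic, with a limma adjusted p of 5.98e-06, and the added 16 makes it understate the linear ratio. It remained called in every alternative that kept the probe set, between -0.96 and -0.48.

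On H2O2, UPOX gave its highest signals at 6 h in the meristematic zone, and the change did not pass the test. The meristematic H2O2 arrays read 63.7 and 55.8 at 1 h, 48.4 and 58.2 at 3 h, and 91.4 and 106 at 6 h. At 1 h they overlapped the controls, at 3 h both lay below them and at 6 h both lay above them. The elongation arrays on H2O2 read 31.7 and 9.18 at 1 h, 8.28 and 23.1 at 3 h, and 17.1 and 14.9 at 6 h. These replicates differed by up to several times and overlapped the controls at all 3 times.

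At 6 h in the meristematic zone UPOX averaged 98.9 ± 10.6 with H2O2 against 67.8 ± 2.04 without it (SD, 2 arrays each). The change was 0.45 ± 0.27 (SE) with a limma adjusted p of 0.72, and its 95% interval ran from -0.11 to 1.02. At 1 and 3 h it was 0.04 and -0.23. Both meristematic arrays on H2O2 lay below both controls for 14.3% of probe sets at 3 h, and above them for 19.7% at 6 h. The elongation zone gave -0.19, -0.46 and -0.10 at 1, 3 and 6 h. Averaged over the 3 times, UPOX changed by 0.09 ± 0.16 in the meristematic zone and by -0.25 ± 0.16 in the elongation zone, with adjusted p of 1 and 0.684. The difference between zones was -0.34 ± 0.22 with an interval of -0.80 to 0.12 and an adjusted p of 1.

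By mean signal the order of UPOX was the reverse of that of NDB2 between zones, with 7 meristematic groups first. The meristematic zone on H2O2 at 6 h led and did not overlap the next group, which was the 6 h control. The other meristematic groups ran down to 53.3 ± 6.95 on H2O2 at 3 h, each overlapping the next. The elongation groups ran from 36.2 ± 3.05 on control medium at 0 h to 15.7 ± 10.5 on H2O2 at 3 h, and each of these overlapped its neighbour, with a gap only between the zones.

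AT5G09570 did not pass the test between zones, media or times with the signals as deposited, though its zone contrast depended on the scaling. Its meristematic control arrays read 62.8 and 68.6 at 0 h, 47.2 and 53.4 at 1 h, 46.4 and 87.6 at 3 h, and 66.6 and 45.9 at 6 h. The elongation control arrays read 66.8 and 57.4 at 0 h, 57.0 and 69.7 at 1 h, 54.7 and 86.4 at 3 h, and 94.4 and 95.5 at 6 h. Over the 4 control times together the arrays of the zones overlapped. The arrays of a group differed most at 3 h.

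The control means of AT5G09570 were 59.8 ± 14.5 for the meristematic zone and 72.7 ± 17.0 for the elongation zone (SD, 8 arrays per zone). The contrast was 0.23 ± 0.14 (SE) with a limma adjusted p of 0.188. Scaling decided this call: it became 0.48 with an adjusted p of 0.00309 after quantile normalization, and 0.50 with 0.00231 after shifting the arrays to 1 median. The median-shift scaling moved the zone contrast of the median probe set from -0.02 to 0.26, and it turned the split of calls from 5910 higher and 7349 lower to 10595 and 5559. Quantile normalization gave 6557 higher and 6625 lower.

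On H2O2 the meristematic arrays of AT5G09570 read 52.9 and 50.6 at 1 h, 74.3 and 50.2 at 3 h, and 61.9 and 61.0 at 6 h. The elongation arrays read 67.9 and 45.6 at 1 h, 54.9 and 108 at 3 h, and 66.8 and 91.7 at 6 h. The last pair lay below both 6 h controls, as 21.6% of probe sets did in that comparison, and all other pairs overlapped their controls. The contrasts were 0.03, -0.06 and 0.12 in the meristematic zone and -0.14, 0.14 and -0.23 in the elongation zone at 1, 3 and 6 h, with an SE of 0.28 each. Averaged over both zones and the 3 times, the change was -0.02 ± 0.12 with a 95% interval of -0.27 to 0.22 and a limma adjusted p of 0.971. Every pair of neighbours in the order of its 14 groups overlapped, from 94.9 ± 0.80 in the elongation control at 6 h to 50.3 ± 4.44 in the meristematic control at 1 h.

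The main model had 1 mean per group, no further term and all arrays in the fit. With it, 0 of the 3 genes were called by limma in any comparison of H2O2 with control medium. NDB2 had an unadjusted limma p under 0.05 at 3 and 6 h in the meristematic zone and in that zone's mean. The same held for its mean of both zones and its shift from 1 h to 6 h. None of the 3 genes was called for a change over time on control medium. The F test over 0, 1, 3 and 6 h gave adjusted p of 0.918 for NDB2, 0.993 for UPOX and 0.974 for AT5G09570 in the meristematic zone, where 0.365% of probe sets were called. In the elongation zone it gave 0.48, 0.59 and 0.673, with 0.422% called.

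Of the alternative NAD(P)H dehydrogenases other than NDB2, 4 of 6 listed genes were measured, and 3 of them differed between zones on control medium, where 58.3% of all probe sets did. NDB3, like NDB2 a member of the B family, was higher in the elongation zone by 0.77 ± 0.16 (SE, limma adjusted p = 2.86e-04). NDC1, the C1 form, was lower at -0.52 ± 0.09 (adjusted p = 3.19e-05), and NDB1 was lower at -0.35 ± 0.09 (adjusted p = 0.00298). NDB4 did not pass, at 0.04 ± 0.14 (adjusted p = 0.845). Their median was -0.155, against -0.0191 over all probe sets. With arrays shifted to 1 median, NDB1 lost its call at -0.07 (adjusted p = 0.517) and NDB4 passed at 0.32 (adjusted p = 0.0427). That scaling moved the zone contrast of the median probe set to 0.26, close to the NDB4 value.

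None of the 4 was called by limma on H2O2 in any comparison. NDB4 came closest, in the elongation zone at 6 h, with 22.4 ± 7.13 on H2O2 against 3.19 ± 1.03 on control medium (SD, n = 2 each). Its change was 0.99 ± 0.27 (SE), with an unadjusted p of 0.0017 and a limma adjusted p of 0.245. The control signal was under the added constant of 16, as were 24.46% to 31.14% of probe sets on the arrays. At 6 h in the meristematic zone, where NDB2 changed by 0.97, the values of NDB1, NDB3, NDB4 and NDC1 were -0.14, -0.23, 0.30 and -0.02.

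Few of the classic retrograde genes could be followed. The response list beyond the 3 genes held 15 genes, of which 5 were measured, and none of 12 regulators or of 11 alternative oxidases and uncoupling proteins was analysed here, because the annotation used pairs no probe set with them alone. Of these 5, AT2G32020 had a mean signal of 103 over all arrays and the other 4 were at 34.6 or less. On H2O2, averaged over both zones, 0 of the 5 passed the test, and their median change was 0.148 against -0.0129 over all probe sets. AT2G41730, singled out after its values were seen, was nearest the threshold at 0.52 ± 0.12 (SE, limma adjusted p = 0.0526), with group means from 19.6 to 47.9 on H2O2 and from 9.17 to 20.8 on control medium at 1 to 6 h. AT5G43450 was called as higher on H2O2 at 3 h in the meristematic zone, by 0.87 ± 0.15 (adjusted p = 0.0487), at a mean signal of only 3.05 over all arrays. It lost that call in 8 of 10 alternatives, among them leaving out each of the 4 arrays compared, with adjusted p up to 0.816.

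AT5G51440, in both the response list and the list of mitochondrial chaperones and proteases, was the only listed response gene that changed over time on control medium. In the meristematic zone its signal was 33.5 ± 8.39 at 0 h, 10.4 ± 3.54 at 1 h, 89.9 ± 7.05 at 3 h and 43.8 ± 13.2 at 6 h (SD, n = 2 each). The F test over these times gave a limma adjusted p of 0.0103, lost when only the arrays compared were fitted. Between zones it was lower in the elongation zone at -0.67 ± 0.14 (SE, adjusted p = 2.17e-04). It was 1 of 5 response genes called for zone, where 58.3% of all probe sets were called. Their median contrast was -0.112, against -0.0191 over all probe sets.

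Of 35 genes listed for the respiratory chain, complexes I to V and cytochrome c, 17 were measured. No gene of complex V, the ATP synthase, was among those measured. On control medium 13 of the 17 were higher in the elongation zone, none was lower and 4 did not pass. Of all probe sets 26% were higher and 32.3% lower, and the list's median was 0.339 against -0.0191 over all. SDH1-2 and SDH2-1, subunits of succinate dehydrogenase, were higher by 1.57 ± 0.10 and 0.95 ± 0.10 (SE, limma adjusted p = 1.67e-11 and 6.2e-08). CYTC-2, a cytochrome c gene, was higher by 1.38 ± 0.12 (adjusted p = 4.06e-09) and AT3G27240 by 0.54 ± 0.05 (adjusted p = 2.17e-08). The count was 17 higher with arrays shifted to 1 median and 12 with quantile normalization, with none lower in either. Over all probe sets the median shift called 10595 as higher and 5559 as lower, against 5910 and 7349 as deposited. Quantile normalization called 6557 and 6625. The median shift also moved the contrast of the median probe set to 0.26, so its count of 17 goes with a general upward shift.

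CYTC-2 was also the respiratory gene called as higher on H2O2 over both zones, by 0.46 ± 0.10 (SE, limma adjusted p = 0.0331), while the list's median was 0.0151. In the meristematic zone its mean signals at 3 and 6 h were 774 and 812 with H2O2 against 556 and 463 without it, and at 1 h its change there was -0.15 ± 0.25 (SE). In the elongation zone its 3 group means were 1962 to 2263 with H2O2, all above the 1323 to 1534 of the controls. The call was lost in 18 of 32 alternatives, with adjusted p up to 0.115, and in 15 of the 24 that left out 1 array. The 9 arrays that could be left out without losing it were 5 numbered 2 on H2O2 (meristematic at 1, 3 and 6 h, elongation at 3 and 6 h), both controls numbered 2 at 1 h, and the meristematic controls numbered 1 at 3 and 6 h.

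Of 4 measured genes for mitochondrial antioxidant proteins, 2 were lower and 1 was higher in the elongation zone on control medium, against 32.3% and 26% of all probe sets. TO1 and TO2, which encode mitochondrial thioredoxins, were lower in the elongation zone, at -0.88 ± 0.08 and -0.80 ± 0.07 (SE), and both remained called in all 24 alternatives. PRXIIF, a peroxiredoxin gene, was higher by 0.18 ± 0.07 (limma adjusted p = 0.0255). It lost that call when only the arrays compared were fitted and on leaving out any of 5 control arrays, which were meristematic 0 h and 1 h numbered 1 and 6 h numbered 2, and elongation 3 h numbered 2 and 6 h numbered 1. None of the 4 measured genes was called on H2O2.

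Of 11 listed proteins with the cysteine motif of the intermembrane space, 2 were measured. AT1G53030 was lower in the elongation zone, at -0.61 ± 0.15 (SE, limma adjusted p = 0.00119), and lost the call with arrays shifted to 1 median, at -0.33 (adjusted p = 0.0541). AT5G64400 did not pass at 0.03 ± 0.07 (adjusted p = 0.734). It passed as higher at 0.26 with quantile normalization and at 0.31 with arrays shifted to 1 median. The median probe set was at 0.0075 and 0.26 in these 2 scalings. Neither was called on H2O2, where their changes over both zones were 0.15 ± 0.12 and -0.0025 ± 0.06.

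**Figure D3:**
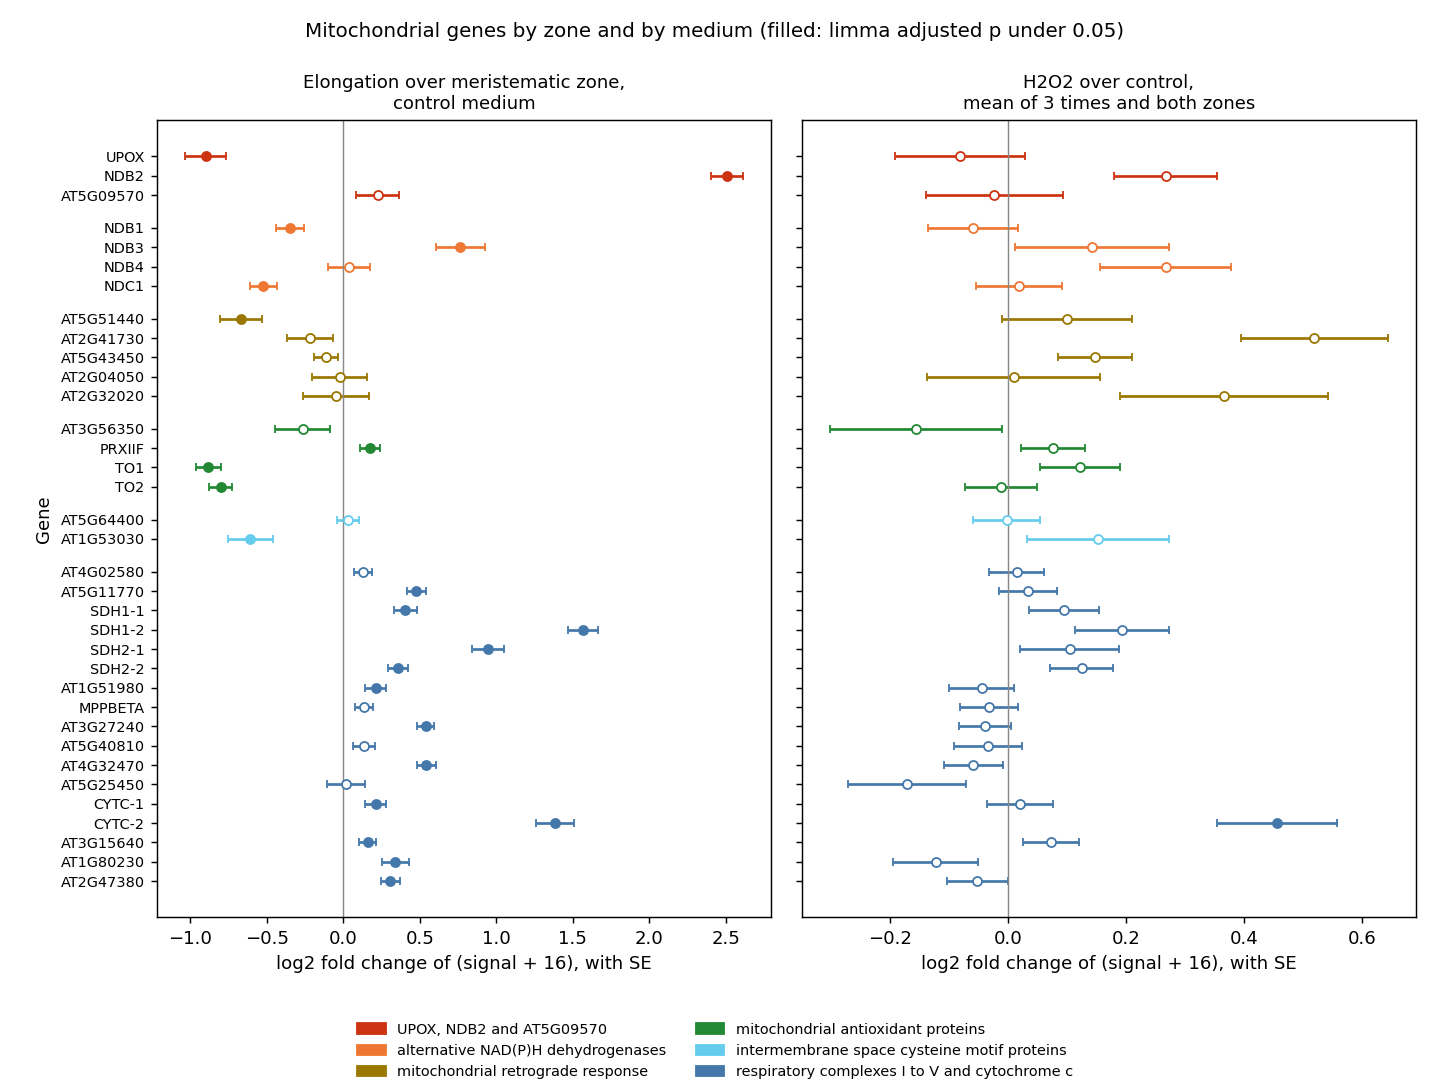
Log2 fold change of (signal + 16) with SE from limma for NDB2, UPOX, AT5G09570 and the measured genes of 5 mitochondrial lists, elongation over meristematic zone on control medium (left) and H2O2 over control medium averaged over 3 times and both zones (right), with different horizontal scales. Filled points have an adjusted p under 0.05. On the left they are NDB2, UPOX, NDB1, NDB3, NDC1, AT5G51440, AT1G53030, PRXIIF, TO1, TO2 and 13 of 17 respiratory genes. On the right CYTC-2 alone is filled.

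The 3 genes did not share a profile over the 14 groups. Over group means of log2(signal + 16), UPOX correlated with NDB2 at -0.865 and with AT5G09570 at -0.608, and NDB2 with AT5G09570 at 0.666. With each zone centred on its own mean, these became 0.0843, -0.258 and 0.49. The points share arrays, zones and control groups, so these values describe the profiles only.

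The genes most like each of them were taken as the 4 with the highest correlation of zone-centred group means, among about 6911 candidates with a mean signal of at least 50. For NDB2 these were AT4G31470 and AT2G36290, both at 0.919, and MSRB5 and AT3G52740, both at 0.914. MSRB5 encodes a methionine sulfoxide reductase of the B type, an enzyme class that repairs oxidised methionine. Unlike NDB2 it was called on H2O2 over both zones, at 0.64 ± 0.13 (SE) with a limma adjusted p of 0.0128. In that comparison 0.932% of all probe sets were called. MSRB5 was picked on these same arrays, H2O2 groups included, so its call is no independent result. The other 3 genes most like NDB2 were not called.

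UPOX was followed by AT3G17740 at 0.887, AT2G17070 at 0.827, AT4G18030 at 0.817 and AT1G66800 at 0.809. For AT5G09570 the values were 0.888 for AT1G61500, 0.826 for AT5G24760, 0.825 for AT1G25510 and 0.82 for AT5G18940. None of these 8 genes was called on H2O2 over both zones.

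**Figure D4:**
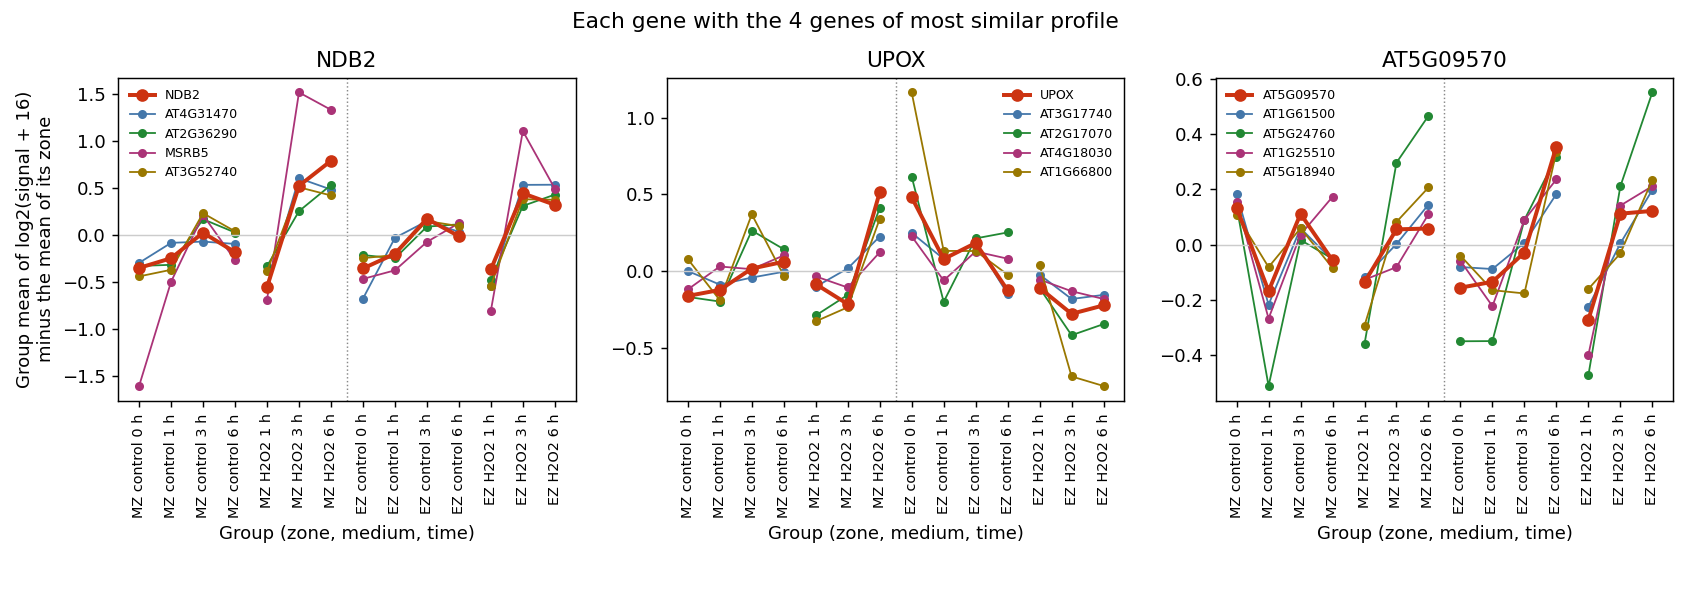
Group means of log2(signal + 16) minus the mean of the zone, over the 14 groups, for each gene (thick red line) and the 4 genes with the most similar profile, with MZ for the meristematic and EZ for the elongation zone and a dotted line between them. NDB2 and its 4 neighbours are lowest at 0 h or at 1 h on H2O2 and highest at 3 and 6 h on H2O2.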

How the data were processed

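The deposited values are linear array intensities per probe set, made by the authors. Per the submitters' processing notes MAS5 and GCRMA were used, with no role stated. In the values, the mean after setting aside 2% at each end was 249.88 to 249.9 on every array, and sorted signals differed between arrays. Here they were taken as log2(signal + 16), which understates changes of dim genes. After leaving out 64 control probe sets, 1 mean per group was fitted to all 28 arrays in limma 3.58.1 (R 4.3.3, eBayes with an intensity trend, 14 residual and 5.64 prior degrees of freedom), with 2-sided tests adjusted by Benjamini-Hochberg over 22746 probe sets. Names came from the platform annotation and a RefSeq gene table, which matched 13436 probe sets to 1 gene, and the brightest probe set stood for a listed gene. Probe sets can bind close relatives. The genes and lists were chosen with earlier results of these data known, and list genes were named where called, up to 4 by p for each list and comparison, besides the alternative dehydrogenases and AT5G64400. The number of arrays limits precision. The limma p-values rest on the spread between the 2 biological replicates of a group, pooled over all 14 groups. Detection calls, sequences and coordinates were not used here. Alternatives were another added constant, 2 other scalings, no trend, a signal minimum, fewer arrays in the fit, a replicate block and leaving out arrays.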

Additional observations from a re-analysis of the deposited data

How the results depend on the processing

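The zone contrasts of NDB2 and UPOX kept their direction and calls in all alternatives, among them leaving out each array in turn (2.42 to 2.59 and -0.96 to -0.83), except that the minimum mean signal of 50 drops UPOX. AT5G09570 between zones passed at 0.48 with quantile normalization and 0.50 with arrays shifted to 1 median. NDB2 at 6 h in the meristematic zone passed only with the replicate block (0.97, adjusted p = 0.0171), and its other alternatives had adjusted p up to 0.45. The labels give replicate numbers and do not state what same-numbered arrays share. Deviations of same-numbered arrays correlated at a median of 0.0992 over 91 pairs of groups (-0.11 to 0.438, 45 over 0.1). On principal component 2 the array numbered 1 scored above the array numbered 2 in every group. The main model held no replicate term, and a shared batch or pairing was not tested. With the replicate block, calls on H2O2 at 1, 3 and 6 h rose to 6, 37 and 115 in the meristematic zone and 38, 67 and 54 in the elongation zone. The block's calls for the means were 111, 209 and 330 (meristematic, elongation, both), 16 for the shift from 1 h to 6 h, and 234 and 415 for the F tests over time.

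Among the uncalled values, scaling turned the meristematic 1 h change of AT5G09570 to -0.011 (quantile normalization) and -0.015 (median shift), and that of UPOX to -0.0092 (median shift). Leaving out both 1 h control arrays numbered 1, an alternative chosen after seeing the data, gave -0.036 for AT5G09570 at 1 h in the meristematic zone, 0.18 for NDB2 at 1 h in the elongation zone and 0.087 for the shift of AT5G09570. It gave 1 call at 1 h in the elongation zone, 21 for the shift, and 164 and 895 for the F tests. The causes were not tested.

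Counts over all probe sets moved with other settings. An added constant of 64 gave 11 and 37 calls at 1 and 6 h in the elongation zone and 1 for the zone difference, which was 2 with either scaling and 1 with the signal minimum. No trend gave 2 calls at 3 h in the meristematic zone, 3 at 1 h in the elongation zone and 54 for the meristematic F test. Fitting only the arrays compared gave 1 and 9 at 3 and 6 h in the meristematic zone, 0 at each time in the elongation zone, 47 for its mean, and 0 and 1 for the F tests, where fewer residual degrees of freedom remain.

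Leaving out 1 array at a time moved the calls at 1, 3 and 6 h to 0 to 2, 1 to 9 and 2 to 35 in the meristematic zone, and to 0 to 207, 1 to 17 and 2 to 18 in the elongation zone. The means ranged over 31 to 71, 63 to 377 and 135 to 430, the zone difference over 0 to 1, the shift over 1 to 40, and the F tests over 36 to 97 and 43 to 887. The elongation 1 h controls gave the highest counts for 1 h, the elongation and joint means and the shift (numbered 2) and for the elongation F test (numbered 1). The lone array left in a group is assumed to vary like the other groups. NDB2 ranged over 0.23 to 0.77 at 3 h in the meristematic zone, -0.52 to 0.18 and 0.031 to 0.51 at 1 and 3 h in the elongation zone, 0.030 to 0.26 for that zone's mean, -0.36 to -0.13 for the zone difference and 0.72 to 1.07 for the shift. UPOX ranged over -0.037 to 0.11 and -0.33 to -0.13 (meristematic, 1 and 3 h), -0.65 to 0.27, -0.81 to -0.12 and -0.21 to 0.0099 (elongation, 1, 3 and 6 h), 0.052 to 0.12, -0.40 to -0.096 and -0.16 to -0.0049 (the means), -0.49 to -0.18 (the zone difference) and 0.022 to 0.48 (the shift). AT5G09570 ranged over -0.036 to 0.10, -0.42 to 0.31 and -0.092 to 0.32 in the meristematic zone, -0.36 to 0.085, -0.26 to 0.54 and -0.42 to -0.043 in the elongation zone, 0.13 to 0.32 between zones on control medium, -0.091 to 0.15, -0.21 to 0.058 and -0.090 to 0.044 for the means, -0.24 to 0.028 for the zone difference and -0.12 to 0.11 for the shift. The arrays limit what can be called: dim probe sets such as UPOX in the elongation zone sit close to the added constant.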
